A study of Mus musculus with 20 samples.

Results

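The genes described here handle glucose in the liver: they carry it, break it down, make it, store it as glycogen, and answer insulin and glucagon. Of 33 genes named by symbol, 29 were found among 19938 genes on the array by an exact match of the platform's gene symbol, with the probe set of highest mean taken for each. Pfkfb1, Eno1 and Gpi1 had no probe set under exactly that symbol, and Gapdh was on 25 probe sets that also carry other symbols, so these 4 genes are not analysed here. All 29 passed the filter on dim genes, and none was dim on any array, where dim means under the 40th percentile of that array over all probe sets.

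RNA was measured on whole-transcript arrays in livers of 20 male mice, 5 of each strain, with 1 array per sample. The strains were NZO/Hl (NZO here), an inbred model of obesity and diabetes, C3H (from the Jackson Lab), 129P2/OlaHsd (129P2 here) and C57/Bl6 (B6 here). The animals of every strain were 6 weeks old and ate a diet with 45% of its calories as fat, 20% as protein and 35% as carbohydrate (4.73 kcal per gram) from weaning at 21 days, so no group on another diet is compared. Body weight, blood glucose, feeding state and time of day at sampling are not given in the sources used here, and the arrays, made to find candidate genes, hold no knockdown. The labels do not say in words that samples of 1 strain are separate animals, and each sample is taken here as 1 animal. The p-values weigh a difference of strain means against the spread between these samples. Values are deposited log2 signals, and a difference of 1 is a 2-fold difference.

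As background, a fed liver takes up glucose through the carrier GLUT2, traps it as glucose 6-phosphate, and sends it to glycogen or through glycolysis to pyruvate and fat, under insulin and under carbohydrate-sensing factors. A fasted liver, under glucagon, breaks glycogen down and makes glucose from lactate, amino acids and glycerol, and FOXO1 and the coactivator PGC-1alpha raise transcription of the enzymes that do so. Insulin signals through its receptor and the adaptors IRS1 and IRS2, and so turns gluconeogenic genes down and glycogen synthesis up.

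Array medians lay between 6.94 and 7.10. The spread of an array (interquartile range over all probe sets) was 2.33 ± 0.11 in NZO, 2.31 ± 0.088 in C3H, 2.32 ± 0.073 in 129P2 and 2.43 ± 0.057 in B6 (SD, n = 5 each), so B6 arrays were on average the widest. With this spread as a covariate, 6948 of 14190 tested genes (49%) followed it, as did 8 of the 29 members: Gckr, Pfkl, Pcx, Fbp1, Pgk1, Pygl, Ugp2 and Gbe1. Its part in the strain differences is given as values beside those it moved. The 10 hepatocyte markers had a mean log2 level of 13.47 to 13.64 on NZO arrays, 13.44 to 13.53 on C3H arrays, 13.36 to 13.61 on 129P2 arrays and 13.46 to 13.56 on B6 arrays.

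Across the 4 strains, 9 of 29 members differed (limma's moderated F-test, adjusted p under 0.05), against 17% of all tested genes. They were the glycogen genes Gys2 and Gbe1, the gluconeogenic genes Pck1 and Pcx, the glucose carrier Slc2a2, the pyruvate genes Ldha and Pdk2, and the signalling genes Ppargc1a and Irs1. Fbp1, Gckr, Ugp2 and Ppp1r3b, each called in a pair below, did not pass this F-test (adjusted p = 0.050045, 0.0554, 0.0740 and 0.0862). In NZO against B6, limma called 0 members higher and 6 lower (Pck1, Gys2, Ugp2, Gbe1, Ppargc1a and Irs1), where 10.3% of all tested genes passed, 3.63% higher and 6.64% lower; at an unadjusted p under 0.05 there were 0 higher and 9 lower members. Against C3H, 0 were higher and 2 lower (Slc2a2 and Gys2), where 6.6% of all tested genes passed, 3.51% higher and 3.09% lower; unadjusted, 2 were higher and 5 lower. Against 129P2, 2 were higher (Ldha and Ppp1r3b) and 5 lower (Fbp1, Gys2, Pdk2, Ppargc1a and Irs1), where 8.9% of all tested genes passed, 4.29% higher and 4.61% lower. The 5 values of each strain did not overlap for 3 members against B6 (9.32% of all tested genes), 1 against C3H (6.72%) and 2 against 129P2 (7.95%). Gys2 was the only member that passed in all 3 NZO comparisons, in each case lower; 1.22% of all tested genes were lower in NZO in all 3.

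The members' median difference was -0.16 in NZO minus B6, -0.04 in NZO minus C3H and -0.20 in NZO minus 129P2, beside medians of 0.0090, -0.0033 and 0.0079 over all tested genes. These 3 comparisons share the NZO arrays. In NZO minus B6, 23 of 29 members had a difference below 0, and 18 did with array spread as a covariate, where the median was -0.14. In NZO minus C3H the median was -0.081 without the 3 narrowest arrays. With that covariate 3 of the 6 calls against B6 passed (Gys2, Gbe1 and Irs1), and the number passing against 129P2 was 12 in place of 7. Among all tested genes it gave 873 higher and 1055 lower calls against 129P2, in place of 609 and 654. Against B6 it gave 711 and 667, in place of 515 and 942.

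**Figure D1:**
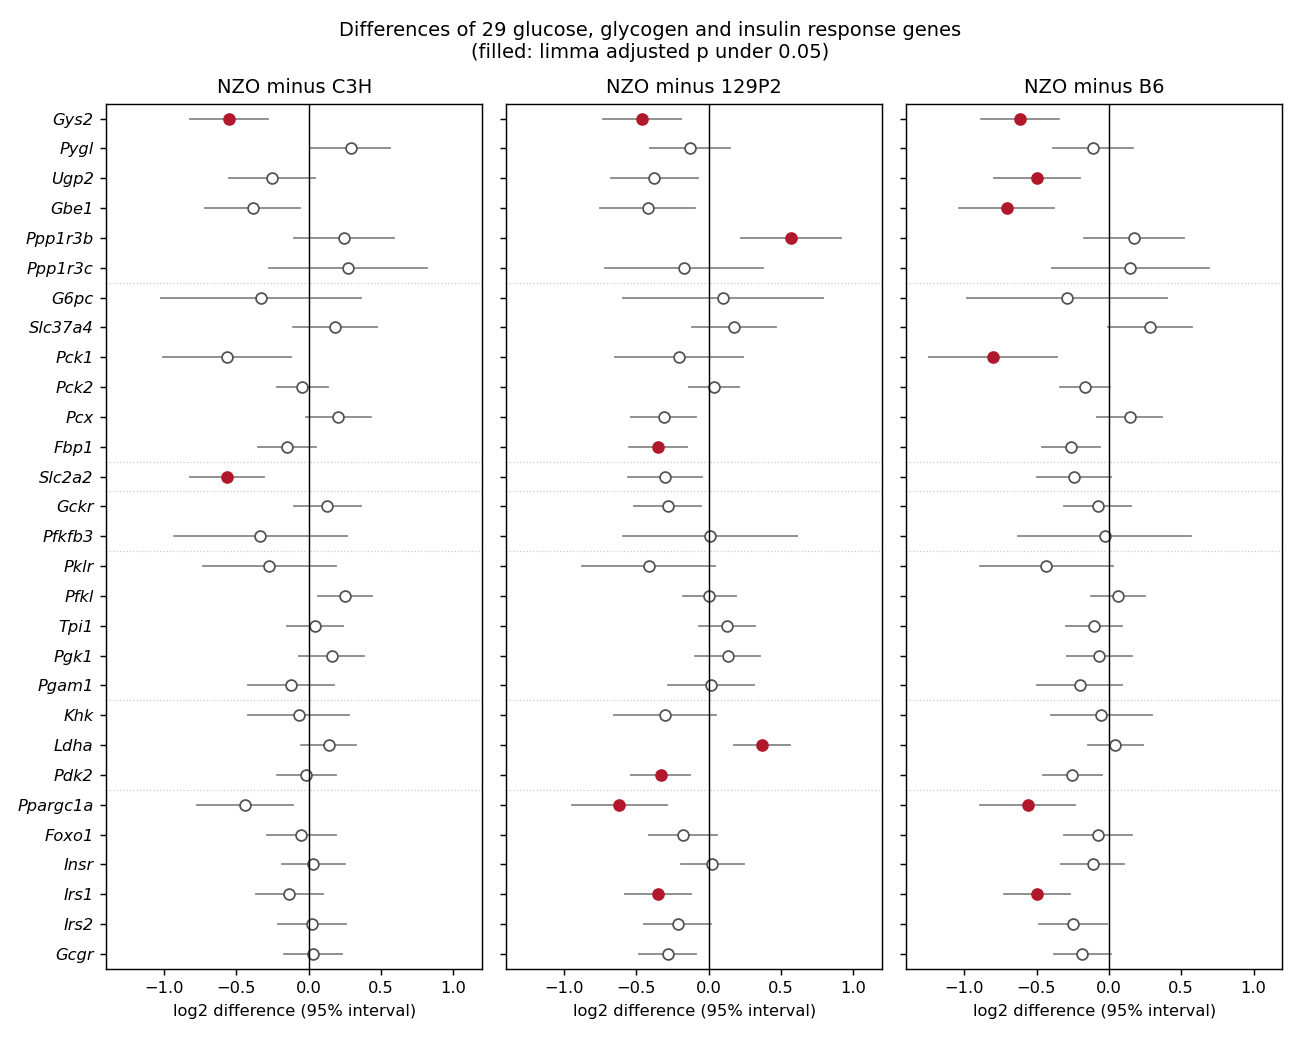
Log2 difference of each of the 29 members in NZO livers minus C3H (left), minus 129P2 (middle) and minus B6 (right), with the 95% interval from the limma fit (n = 5 a strain). Filled points passed at an adjusted p under 0.05: 2 against C3H, 7 against 129P2 and 6 against B6. Gys2 is filled on the low side in all 3 panels.

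In the pairs without NZO, 5 differences passed. In C3H minus B6 it was Irs1, lower, where 8.05% of all tested genes passed, 2.71% higher and 5.34% lower. In 129P2 minus B6 Pcx was higher and Ldha lower, where 6.19% passed, 2.11% higher and 4.08% lower. In C3H minus 129P2 Gckr and Pcx were lower, where 5.03% passed, 2.25% higher and 2.78% lower. Values did not overlap for 0, 3 and 2 members in these pairs, beside 8.81%, 7.41% and 5.4% of all tested genes. Median member differences were -0.12, -0.03 and -0.12 in these pairs, beside 0.0019, 0.0030 and 0.0093 over all tested genes. With array spread as a covariate the member median was -0.016 in C3H minus B6, with 16 of 29 below 0 in place of 24, and 0.066 in 129P2 minus B6, with 11 below 0 in place of 16, so its sign turned. Without the 3 narrowest arrays it was 0.037 in 129P2 minus B6 and -0.060 in C3H minus 129P2.

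Several glycogen genes had lower levels in NZO than in B6. Glucose enters glycogen as UDP-glucose made by UGP2, is joined into chains by the liver glycogen synthase GYS2, and is branched by GBE1; PYGL is the liver phosphorylase that releases it, and PPP1R3B and PPP1R3C bring protein phosphatase 1 to glycogen, where it activates the synthase. Of these 6 genes, 3 were lower in NZO than in B6 (Gys2, Gbe1 and Ugp2), where 6.64% of all tested genes were lower. Against C3H 1 of them was lower (Gys2), beside 3.09% of all tested genes. Against 129P2 1 was lower (Gys2) and 1 higher (Ppp1r3b), beside 4.61% and 4.29%. The median difference of the 6 was -0.30 against B6, -0.0056 against C3H and -0.27 against 129P2. With array spread as a covariate it was -0.024 against C3H and -0.13 against B6. The value against B6 had 3 of the 6 below 0 in place of 4. In each of the 3 pairs without NZO limma called 0 glycogen members, and 1 had an unadjusted p under 0.05.

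Gys2 had log2 signals of 11.23, 10.99, 10.93, 11.23 and 11.07 in NZO livers, 11.74, 11.74, 11.21, 11.79 and 11.74 in C3H livers, 11.56, 11.51, 11.75, 11.15 and 11.79 in 129P2 livers, and 11.71, 11.74, 11.94, 11.82 and 11.32 in B6 livers. All 5 NZO values lay under all 5 B6 values, and 1 value of C3H (11.21) and 1 of 129P2 (11.15) fell within the NZO range. The difference was -0.61 ± 0.13 (SE; adjusted p = 0.00293) from B6, a level at 65.4% of B6, -0.55 ± 0.13 (SE; adjusted p = 0.00861) from C3H and -0.46 ± 0.13 (SE; adjusted p = 0.0261) from 129P2. C3H, 129P2 and B6 did not differ from each other in Gys2 beyond their spread (C3H minus B6 interval -0.33 to 0.21, 129P2 minus B6 -0.42 to 0.11, C3H minus 129P2 -0.18 to 0.36). The calls against B6 and C3H held in each of 11 other settings and without any single animal. The one against 129P2 was lost with equal array medians and without NZO animals 2, 3 and 5 and 129P2 animals 3 and 5, taken out singly (adjusted p up to 0.0818, difference -0.56 to -0.40 over all 20 such fits).

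Gbe1 had log2 signals of 9.82, 9.15, 9.41, 9.67 and 9.48 in NZO livers, 9.89, 10.30, 9.31, 9.86 and 10.10 in C3H livers, 9.79, 9.56, 10.29, 10.21 and 9.78 in 129P2 livers, and 10.14, 10.09, 10.25, 10.34 and 10.22 in B6 livers. The NZO values all lay under the B6 values, while those of C3H and 129P2 overlapped both. NZO minus B6 was -0.70 ± 0.16 (SE; adjusted p = 0.00478), and the C3H and 129P2 means stood between these strains, at 9.89 and 9.93. Gbe1 was also the member with the steepest slope on array spread, and with spread as a covariate the NZO minus B6 difference was -0.43 (adjusted p = 0.00785).

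Ugp2 had 10.83, 10.33, 10.25, 10.88 and 10.70 in NZO livers, 11.12, 10.84, 10.38, 10.77 and 11.14 in C3H livers, 11.07, 10.74, 11.13, 10.98 and 10.94 in 129P2 livers, and 11.37, 11.19, 10.80, 10.99 and 11.12 in B6 livers. The lowest 2 values were those of NZO animals 2 and 3, and NZO and B6 values overlapped between 10.80 and 10.88. NZO minus B6 was -0.50 ± 0.14 (SE; adjusted p = 0.0288). Ugp2 followed array spread too, and its call was lost with spread as a covariate (-0.33, adjusted p = 0.137) and without NZO animals 2 and 3 and B6 animals 1, 2 and 5, taken out singly (adjusted p up to 0.0976, difference -0.57 to -0.41 over all 20 such fits).

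Ppp1r3b went the other way. It had 9.51, 9.44, 9.59, 9.93 and 9.25 in NZO livers, 9.45, 8.76, 9.42, 9.42 and 9.47 in C3H livers, 9.43, 8.67, 8.88, 9.20 and 8.70 in 129P2 livers, and 9.63, 9.41, 8.99, 9.17 and 9.64 in B6 livers, and 4 of 5 NZO values lay above all 5 values of 129P2. NZO minus 129P2 was 0.57 ± 0.17 (SE; adjusted p = 0.0323); against C3H and B6 the differences were 0.24 and 0.18 and did not pass. The call was lost when the 3 narrowest arrays were left out (0.52, adjusted p = 0.11), with equal array medians, and without NZO animals 3 and 4 and 129P2 animals 2, 3 and 5, taken out singly (adjusted p up to 0.105, difference 0.47 to 0.68 over all 20 such fits).

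Pygl and Ppp1r3c passed in no comparison. Pygl averaged 11.29 ± 0.37 in NZO, 11.01 ± 0.21 in C3H, 11.42 ± 0.09 in 129P2 and 11.40 ± 0.14 in B6 (SD, n = 5 each), with adjusted p of 0.0687 in C3H minus B6 and 0.0764 in C3H minus 129P2. Ppp1r3c averaged 8.63 ± 0.49 in NZO, 8.36 ± 0.52 in C3H, 8.80 ± 0.25 in 129P2 and 8.48 ± 0.60 in B6, and its spread within strains (pooled SD 0.48) was above the range of its strain means (0.44).

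**Figure D2:**
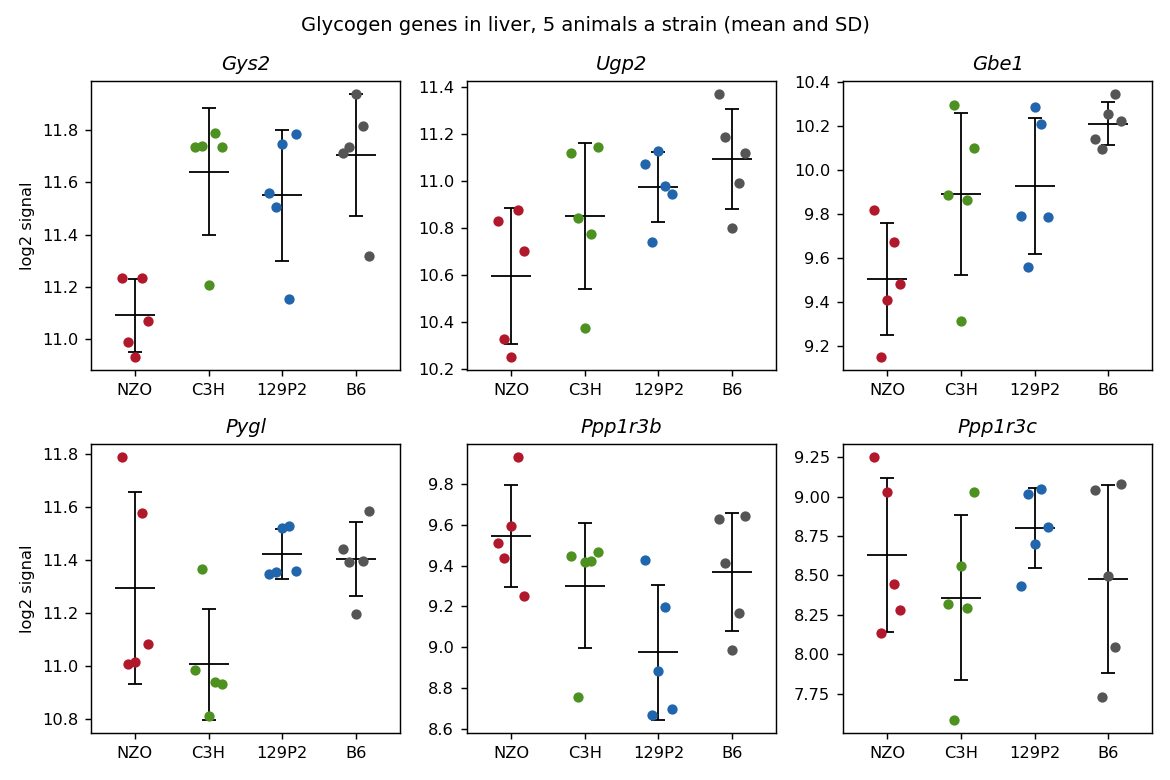
Log2 signal of the 6 glycogen members (Gys2, Gbe1, Ugp2, Pygl, Ppp1r3b and Ppp1r3c) in each liver, with strains in the order NZO, C3H, 129P2, B6; points are single arrays, bars the mean and SD (n = 5). NZO lies lowest for Gys2 and Gbe1, with no NZO point above the lowest B6 point.

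Gluconeogenesis runs from pyruvate through oxaloacetate, made by pyruvate carboxylase (Pcx), to phosphoenolpyruvate, made by PEPCK (Pck1 in the cytosol, Pck2 in mitochondria), then through fructose bisphosphatase (Fbp1) to glucose 6-phosphate. That is carried into the endoplasmic reticulum by SLC37A4 and cut to free glucose by the catalytic subunit G6PC. Of these 6 genes, 1 was lower in NZO than in B6 (Pck1), 0 passed against C3H (1 at an unadjusted p under 0.05), and Fbp1 was lower than in 129P2. Among all tested genes 6.64% were lower against B6, 6.6% passed against C3H, and 4.61% were lower against 129P2. Pcx differed between the other strains, and the terminal enzyme G6pc passed in no comparison.

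Pck1 and G6pc are the classic hormone-controlled genes of this path, and the 250 bases upstream of their starts are shown with the matches to the patterns searched for. Capitals in Pck1 mark TTACGTCA, its well-known cAMP response element, whose first base is at -93 from the transcript start. In G6pc they mark TGTTTTG, an insulin response core, at -174, and TGACCTA, which is TAGGTCA (a ROR and REV-ERB element core) on the other strand, at -54. The sequences are RefSeq's, from the GRCm38.p6 assembly (chr2:173152823-173153072, plus strand for Pck1 and chr11:101367466-101367715, plus strand for G6pc), which was read from B6, so strain differences in them were not tested.
Pck1: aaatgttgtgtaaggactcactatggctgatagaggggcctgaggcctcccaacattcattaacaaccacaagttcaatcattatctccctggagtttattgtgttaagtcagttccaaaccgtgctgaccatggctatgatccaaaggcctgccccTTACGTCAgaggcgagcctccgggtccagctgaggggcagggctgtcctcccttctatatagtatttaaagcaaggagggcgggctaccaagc
G6pc: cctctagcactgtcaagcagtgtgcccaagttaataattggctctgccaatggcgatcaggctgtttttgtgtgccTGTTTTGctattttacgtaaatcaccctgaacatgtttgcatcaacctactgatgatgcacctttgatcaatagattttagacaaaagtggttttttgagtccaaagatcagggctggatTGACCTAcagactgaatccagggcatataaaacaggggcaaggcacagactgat
Over 32851 RefSeq promoters of the same length, searched on both strands, 0.447% hold TTACGTCA, 5.56% TGTTTTG and 2.23% TAGGTCA. Counted by gene, with a gene counted once if any of its starts holds the letters, the shares of 27025 genes are 0.525%, 6.38% and 2.55%. Of the 26 members with a promoter in the table, counted the same way, Pck1 alone held TTACGTCA, 5 held TGTTTTG (Gckr, G6pc, Pck2, Irs1 and Irs2) and 3 held TAGGTCA (Pklr, G6pc and Slc37a4). The FOXO core TGTTTAC was in 0 of these 26 and in 3.54% of all genes. A match is a description of letters only. Only exact matches to chosen patterns were searched for, so a site with other letters, such as a variant cAMP response element, would not be marked.

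Pck1 had log2 signals of 11.84, 11.35, 11.47, 12.05 and 11.24 in NZO livers, 11.98, 12.10, 12.42, 12.49 and 11.80 in C3H livers, 12.62, 11.89, 11.21, 11.32 and 11.95 in 129P2 livers, and 12.13, 12.52, 12.71, 12.53 and 12.07 in B6 livers. The NZO and B6 ranges did not overlap, 129P2 ran across both, and C3H lay mostly above NZO. NZO minus B6 was -0.80 ± 0.21 (SE; adjusted p = 0.0174), a level at 57.5% of B6 and the largest difference of any member in the 6 comparisons. Against C3H it was -0.56 ± 0.21 (SE; adjusted p = 0.144) and against 129P2 -0.20 ± 0.21 (SE; adjusted p = 0.683), neither past the threshold. The call against B6 was lost with spread as a covariate (-0.76, adjusted p = 0.0527), with the 3 narrowest arrays left out (-0.74, adjusted p = 0.0572), and without NZO animals 2 and 5 and B6 animal 3, taken out singly (adjusted p up to 0.0551, difference -0.91 to -0.71 over all 20 such fits).

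G6pc had 11.75, 10.91, 10.98, 13.00 and 10.52 in NZO livers, 11.52, 11.36, 12.02, 12.16 and 11.74 in C3H livers, 11.77, 11.30, 11.46, 11.75 and 10.39 in 129P2 livers, and 11.21, 12.14, 11.87, 11.83 and 11.56 in B6 livers. The highest of the 20 values was 13.00 in NZO animal 4 and the lowest 10.39 in 129P2 animal 5, and the strains overlapped throughout. The pooled SD within strains was 0.62, the highest of the 29 members, and the range of strain means was 0.43. No difference passed, and the NZO minus B6 interval ran from -0.98 to 0.40.

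Pcx was highest in 129P2. It had 11.36, 11.32, 11.33, 11.61 and 11.21 in NZO livers, 11.26, 11.42, 10.84, 11.09 and 11.20 in C3H livers, 11.64, 11.48, 11.96, 11.53 and 11.78 in 129P2 livers, and 11.17, 11.10, 11.08, 11.34 and 11.43 in B6 livers; all 129P2 values lay above all values of C3H and B6, and 1 NZO value (11.61) lay in the 129P2 range. The difference was 0.46 ± 0.11 (SE; adjusted p = 0.0109) in 129P2 minus B6 and -0.52 ± 0.11 (SE; adjusted p = 0.00455) in C3H minus 129P2, and NZO minus 129P2 was -0.31 ± 0.11 (SE; adjusted p = 0.0831). Pcx followed array spread; with spread as a covariate 129P2 minus B6 was 0.60 (adjusted p = 0.00078), and with equal array medians it was 0.41 and did not pass (adjusted p = 0.0604).

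Fbp1 had 12.55, 12.11, 12.12, 12.73 and 12.28 in NZO livers, 12.50, 12.45, 12.40, 12.51 and 12.67 in C3H livers, 12.75, 12.69, 12.75, 12.67 and 12.69 in 129P2 livers, and 12.49, 12.54, 12.78, 12.64 and 12.65 in B6 livers. The 129P2 values ran from 12.67 to 12.75, whereas those of NZO ran from 12.11 to 12.73. NZO minus 129P2 was -0.35 ± 0.10 (SE; adjusted p = 0.0204), and 1 NZO animal reached the 129P2 range. The call was lost when the 3 narrowest arrays were left out (-0.29, adjusted p = 0.0857), with equal array medians, with only the compared strains in the fit, and without NZO animals 2, 3 and 5, taken out singly (adjusted p up to 0.0764, difference -0.44 to -0.29 over all 20 such fits).

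Slc37a4 and Pck2 passed nowhere. Slc37a4 averaged 10.54 ± 0.22 in NZO, 10.36 ± 0.17 in C3H, 10.37 ± 0.16 in 129P2 and 10.26 ± 0.36 in B6, and Pck2 averaged 7.72 ± 0.20 in NZO, 7.77 ± 0.08 in C3H, 7.69 ± 0.06 in 129P2 and 7.89 ± 0.14 in B6 (SD, n = 5 each). Pck2 values of 129P2 lay all under those of B6, but the difference of -0.20 ± 0.08 (SE; adjusted p = 0.19) did not pass.

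**Figure D3:**
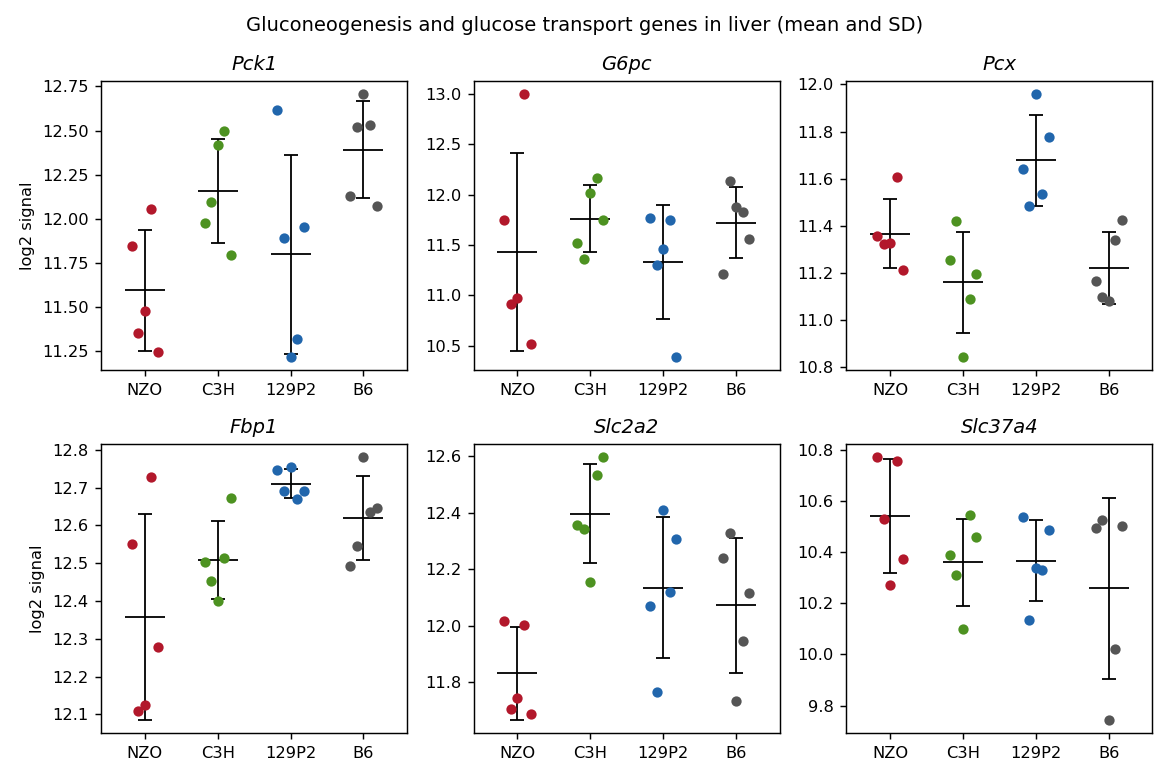
Log2 signal of 6 members of glucose production and transport (Pck1, G6pc, Pcx, Fbp1, Slc2a2 and Slc37a4) in each liver, with strains in the order NZO, C3H, 129P2, B6; points are single arrays, bars the mean and SD (n = 5). NZO Pck1 points lie under all B6 points, 129P2 Pcx points lie above all C3H and B6 points, and G6pc points spread widely within strains.

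Slc2a2 encodes GLUT2, the carrier through which hepatocytes take up and release glucose. It had 12.02, 11.71, 11.75, 12.00 and 11.69 in NZO livers, 12.36, 12.34, 12.16, 12.53 and 12.60 in C3H livers, 12.07, 11.76, 12.41, 12.12 and 12.31 in 129P2 livers, and 12.24, 12.33, 11.73, 11.94 and 12.12 in B6 livers. All C3H values lay above all NZO values, and 129P2 and B6 overlapped both. NZO minus C3H was -0.56 ± 0.12 (SE; adjusted p = 0.00447), a level at 67.6% of C3H, and it held in each of the 11 other settings and without any single animal. Against 129P2 and B6 the NZO differences were -0.30 (adjusted p = 0.147) and -0.24 (adjusted p = 0.225).

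Few glycolytic differences passed. GCKR is the protein that holds glucokinase inactive in the nucleus, PFKL the liver phosphofructokinase, PFKFB3 a maker of its activator fructose 2,6-bisphosphate, and TPI1, PGK1 and PGAM1 catalyse later steps up to the liver pyruvate kinase, PKLR. Of these 7 genes limma called 0 in the NZO comparisons (2 differences had an unadjusted p under 0.05, Pfkl against C3H and Gckr against 129P2), and Gckr was lower in C3H than in 129P2. Of all tested genes 10.3% passed against B6, 6.6% against C3H and 8.9% against 129P2, and 2.78% were lower in C3H than in 129P2. Gckr had 10.77, 10.48, 10.45, 10.63 and 10.43 in NZO livers, 10.49, 10.68, 10.04, 10.38 and 10.52 in C3H livers, 10.82, 10.94, 10.86, 10.95 and 10.61 in 129P2 livers, and 10.73, 10.51, 10.44, 10.89 and 10.58 in B6 livers; C3H animal 3 was the lowest and the 129P2 and C3H ranges overlapped. The difference was -0.41 ± 0.11 (SE; adjusted p = 0.0308), and it was lost with the 3 narrowest arrays left out (-0.29, adjusted p = 0.164), with equal array medians, with only the compared strains in the fit, and without C3H animals 3 and 4 and 129P2 animals 1, 2, 3 and 4, taken out singly (adjusted p up to 0.0951, difference -0.48 to -0.32 over all 20 such fits).

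The other 6 glycolytic members passed nowhere. Pfkl averaged 8.49 ± 0.15 in NZO, 8.23 ± 0.11 in C3H, 8.48 ± 0.03 in 129P2 and 8.42 ± 0.21 in B6, Tpi1 averaged 11.42 ± 0.10 in NZO, 11.38 ± 0.12 in C3H, 11.30 ± 0.20 in 129P2 and 11.52 ± 0.13 in B6, Pgk1 averaged 10.77 ± 0.22 in NZO, 10.61 ± 0.17 in C3H, 10.63 ± 0.14 in 129P2 and 10.83 ± 0.15 in B6 and Pgam1 averaged 10.98 ± 0.19 in NZO, 11.11 ± 0.30 in C3H, 10.97 ± 0.34 in 129P2 and 11.19 ± 0.05 in B6 (SD, n = 5 each). Pgk1 and Pgam1 are each on 3 probe sets and have near-identical copies in the genome, and which copy a signal comes from is uncertain. For each gene, 2 of the 3 probe sets hold the same values. The Pgam1 probe set used is the third. Pfkfb3 averaged 7.36 ± 0.23 in NZO, 7.69 ± 0.39 in C3H, 7.35 ± 0.84 in 129P2 and 7.39 ± 0.49 in B6, with 1 high animal in 129P2 (8.81) and 1 in B6 (8.25).

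Pklr and Khk are sugar-responsive: KHK is ketohexokinase, which starts fructose breakdown, and Pklr is the standard target of the carbohydrate-sensing factor ChREBP. Pklr has 2 RefSeq starts, and its second is shown because it holds the pattern of a carbohydrate response element, CACGNG and CNCGTG set 5 bases apart (both strands), written in capitals. Of 32851 promoters of this length, 13 (0.0396%) hold it. The match starts at -170 (chr3:89136373-89136622, plus strand, GRCm38.p6). Khk holds the E-box CACGTG, in capitals, at -71 from its start (chr5:30921309-30921558, plus strand), as 6.02% of all promoters do.
Pklr: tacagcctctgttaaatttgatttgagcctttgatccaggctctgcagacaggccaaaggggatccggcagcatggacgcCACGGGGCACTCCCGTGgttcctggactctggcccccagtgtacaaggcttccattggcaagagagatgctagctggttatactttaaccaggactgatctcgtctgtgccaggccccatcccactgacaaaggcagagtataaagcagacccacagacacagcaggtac
Khk: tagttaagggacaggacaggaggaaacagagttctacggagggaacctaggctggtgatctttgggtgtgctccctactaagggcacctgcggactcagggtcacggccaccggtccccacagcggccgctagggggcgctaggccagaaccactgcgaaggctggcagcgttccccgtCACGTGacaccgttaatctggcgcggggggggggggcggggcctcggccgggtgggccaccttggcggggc
The E-box CACGTG was in 8 of the 26 members with a promoter in the table: Pfkfb3, Pcx, Khk, Ldha, Ppp1r3c, Pdk2, Irs1 and Irs2. Over all genes it was in 6.86%.

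Neither gene passed in any comparison. Pklr had 11.04, 10.69, 10.68, 11.77 and 10.60 in NZO livers, 11.15, 11.04, 10.97, 11.39 and 11.60 in C3H livers, 11.27, 10.65, 11.88, 11.69 and 11.37 in 129P2 livers, and 11.52, 11.85, 11.01, 11.05 and 11.51 in B6 livers, with NZO animal 4 at 11.77 and the other 4 NZO animals between 10.60 and 11.04, and NZO minus B6 was -0.43 ± 0.22 (SE; adjusted p = 0.23). Khk had 11.55, 11.27, 11.22, 11.94 and 11.22 in NZO livers, 11.49, 11.28, 11.26, 11.70 and 11.83 in C3H livers, 11.65, 11.27, 12.02, 12.06 and 11.74 in 129P2 livers, and 11.69, 11.56, 10.98, 11.44 and 11.80 in B6 livers, with the same NZO animal highest in its strain. The intervals of NZO minus B6 ran from -0.89 to 0.03 for Pklr and from -0.40 to 0.30 for Khk.

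Animals of 1 strain that were high in Pklr were high in Khk. Over deviations from strain means in the 20 livers, r was 0.90 and Spearman's rho 0.89 (permutation within strains, two-sided, p = 1e-05, the smallest that 100000 draws give; adjusted p = 9e-05 over 9 pairs of members tested). Without the 2 livers farthest from the Pklr median r was 0.85, and with array spread regressed out of both it was 0.89. Pck1 and G6pc gave r = 0.48 and rho = 0.47 (adjusted p = 0.166 and 0.249). Without the 2 livers farthest from the G6pc median they gave r = 0.51 and rho = 0.48 (adjusted p = 0.026 and 0.094). Pklr with G6pc gave r = 0.54 and rho = 0.44 (adjusted p = 0.166 and 0.249), and r = 0.385 without the 2 livers farthest from the Pklr median. The other 6 pairs, among G6pc, Pck1, Ppargc1a and Irs2 and of Ppp1r3b with Ppp1r3c, had adjusted p of at least 0.329.

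**Figure D4:**
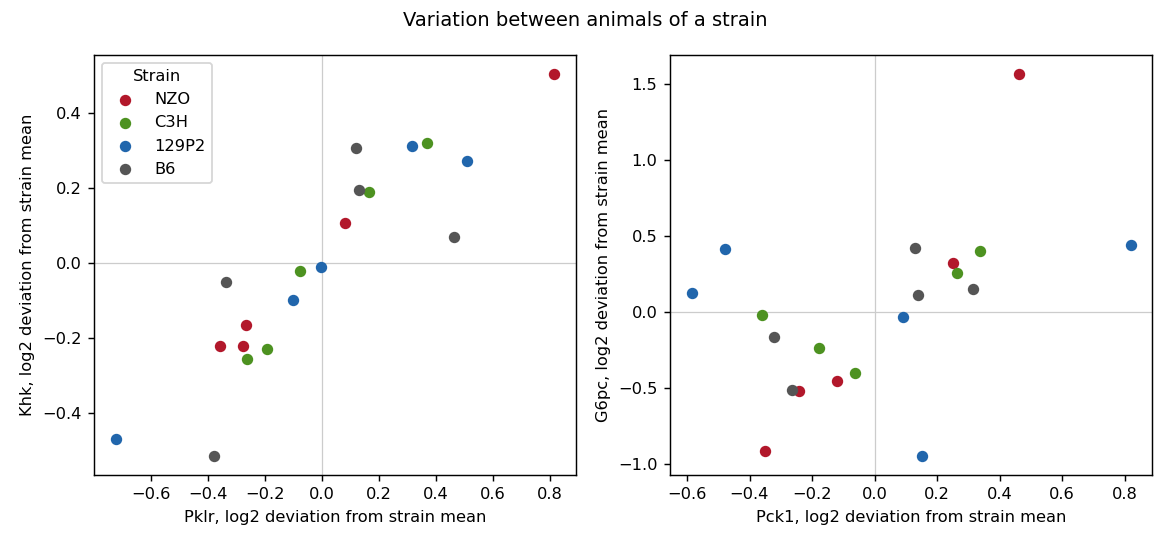
Each liver's deviation from its strain mean (log2) for Khk against Pklr (left) and for G6pc against Pck1 (right), coloured by strain, n = 20 livers. The Pklr and Khk points lie along a line (r = 0.90), while those of G6pc and Pck1 scatter (r = 0.48).

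Both Ldha and Pdk2 differed between NZO and 129P2. LDHA turns pyruvate into lactate and back, and PDK2 is a kinase that shuts the pyruvate dehydrogenase complex and so keeps pyruvate from oxidation. Ldha had 12.55, 12.47, 12.66, 12.58 and 12.48 in NZO livers, 12.44, 12.40, 12.28, 12.58 and 12.35 in C3H livers, 12.28, 11.81, 12.33, 12.31 and 12.16 in 129P2 livers, and 12.40, 12.41, 12.73, 12.59 and 12.39 in B6 livers. All 129P2 values lay under all values of NZO and of B6. NZO minus 129P2 was 0.37 ± 0.09 (SE; adjusted p = 0.0118) and 129P2 minus B6 -0.32 ± 0.09 (SE; adjusted p = 0.039); the first held in each of the 11 other settings and without any single animal. The second was lost with spread as a covariate (-0.22, adjusted p = 0.185), with the 3 narrowest arrays left out (-0.23, adjusted p = 0.0892), in 3 more settings, and without 129P2 animals 2 and 5 and B6 animals 3 and 4, taken out singly (adjusted p up to 0.119, difference -0.36 to -0.23 over all 20 such fits).

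The first Ldha start is shown, as it holds 3 matches: capitals mark 2 E-boxes CACGTG at -145 and -48 from the start and the cAMP response element TGACGTCA at -12 (chr7:46845554-46845803, plus strand, GRCm38.p6). TGACGTCA is in 1.55% of all promoters (1.77% of genes) and in no other of the 26 members.
Ldha: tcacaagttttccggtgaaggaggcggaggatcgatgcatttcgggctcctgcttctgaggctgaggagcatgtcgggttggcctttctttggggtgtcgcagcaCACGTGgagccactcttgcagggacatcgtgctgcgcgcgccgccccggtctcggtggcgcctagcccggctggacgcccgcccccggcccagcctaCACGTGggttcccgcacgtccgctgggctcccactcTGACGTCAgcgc

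Pdk2 had 10.33, 10.78, 10.41, 10.70 and 10.59 in NZO livers, 10.69, 10.56, 10.36, 10.55 and 10.74 in C3H livers, 10.89, 10.85, 11.02, 10.69 and 11.02 in 129P2 livers, and 10.94, 10.72, 10.65, 10.87 and 10.88 in B6 livers. NZO and 129P2 overlapped at 10.69 to 10.78. NZO minus 129P2 was -0.33 ± 0.10 (SE; adjusted p = 0.033), lost with equal array medians, with only the compared strains in the fit, and without NZO animals 1, 3 and 5 and 129P2 animals 1, 3 and 5, taken out singly (adjusted p up to 0.0987, difference -0.39 to -0.28 over all 20 such fits). Against B6 the NZO difference was -0.25 (adjusted p = 0.107) and in C3H minus 129P2 it was -0.31 (adjusted p = 0.0667).

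Of the 6 genes of insulin and glucagon signalling, Ppargc1a and Irs1 had lower levels in NZO livers than in B6 or 129P2 livers, and against C3H 0 passed (1 at an unadjusted p under 0.05). Beside them, 6.64% of all tested genes were lower against B6 and 4.61% against 129P2, and 6.6% passed against C3H. The 6 signalling genes had a median difference of -0.22 in NZO minus B6, -0.01 in NZO minus C3H (-0.089 without the 3 narrowest arrays) and -0.25 in NZO minus 129P2. Ppargc1a encodes PGC-1alpha, the fasting-induced coactivator of gluconeogenic and mitochondrial genes. It had 8.10, 8.18, 8.13, 8.07 and 8.33 in NZO livers, 8.90, 8.72, 8.31, 8.50 and 8.59 in C3H livers, 9.42, 8.52, 8.61, 8.74 and 8.62 in 129P2 livers, and 8.67, 8.23, 8.76, 9.23 and 8.74 in B6 livers. NZO was tight and low, from 8.07 to 8.33, all 129P2 values lay above it, and 1 B6 value (8.23) and 1 C3H value (8.31) fell in its range.

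For Ppargc1a NZO minus 129P2 was -0.62 ± 0.16 (SE; adjusted p = 0.0138) and NZO minus B6 -0.56 ± 0.16 (SE; adjusted p = 0.0252), and NZO minus C3H was -0.44 ± 0.16 (SE; adjusted p = 0.118), which did not pass. A dimmer second probe set of the gene had a mean of 6.39 and was dim on every NZO array. Its differences were -0.46, -0.21 and -0.48 from B6, C3H and 129P2 (SE 0.22 each). Both calls of the gene were lost when the probe sets were averaged. The call against B6 was also lost with spread as a covariate (-0.43, adjusted p = 0.116) and without NZO animals 3 and 4 and B6 animals 3 and 4, taken out singly (adjusted p up to 0.0947, difference -0.69 to -0.44 over all 20 such fits).

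Irs1 encodes the insulin receptor substrate that passes the signal from the receptor to PI3-kinase. It had 8.39, 8.20, 8.70, 8.31 and 8.39 in NZO livers, 8.41, 8.43, 8.65, 8.72 and 8.46 in C3H livers, 8.78, 8.81, 8.71, 8.96 and 8.51 in 129P2 livers, and 8.87, 8.57, 9.23, 8.93 and 8.87 in B6 livers. NZO was lowest on average and B6 highest, with C3H and 129P2 between them; neighbours in that order did not differ beyond their spread (NZO minus C3H interval -0.36 to 0.10, C3H minus 129P2 -0.45 to 0.01, 129P2 minus B6 -0.37 to 0.09). NZO minus B6 was -0.50 ± 0.11 (SE; adjusted p = 0.00462) and held without any single animal. NZO minus 129P2 was -0.35 ± 0.11 (SE; adjusted p = 0.0486) and C3H minus B6 -0.36 ± 0.11 (SE; adjusted p = 0.0453).

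These last Irs1 calls were near the threshold. NZO minus 129P2 was lost in 7 of 11 other settings (-0.29, adjusted p = 0.187, with the 3 narrowest arrays left out) and without NZO animals 1, 2, 4 and 5, C3H animals 1, 2, 4 and 5, 129P2 animals 1, 2, 3 and 4 and B6 animals 1, 4 and 5, taken out singly (adjusted p up to 0.132, difference -0.43 to -0.30 over all 20 such fits). C3H minus B6 was lost in 6 of the 11 and without NZO animals 4 and 5, C3H animals 1, 2, 3 and 5, 129P2 animals 1 and 3 and B6 animals 1, 3, 4 and 5, taken out singly (adjusted p up to 0.14, difference -0.44 to -0.28 over all 20 such fits). The second Irs1 probe set was dim, and its differences had the other sign. They were 0.12 in NZO minus B6, 0.10 in NZO minus 129P2 and 0.13 in C3H minus B6 (SE 0.14 each). Averaging it with the probe set used ended all 3 calls.

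The Irs1 promoter is shown because it holds both an E-box and 2 insulin response cores. Capitals mark CACGTG at -115 from the start, running on into TGTTTTG at -111 with which it shares 2 bases, and another TGTTTTG at -32 (chr1:82291440-82291689, minus strand, GRCm38.p6).
Irs1: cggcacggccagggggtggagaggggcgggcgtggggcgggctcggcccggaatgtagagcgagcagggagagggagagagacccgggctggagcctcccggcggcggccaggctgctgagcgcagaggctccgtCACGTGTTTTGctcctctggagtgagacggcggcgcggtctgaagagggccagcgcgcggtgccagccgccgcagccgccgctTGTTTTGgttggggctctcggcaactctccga

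Irs2, the insulin receptor Insr, the glucagon receptor Gcgr and Foxo1 passed nowhere. Irs2 averaged 7.99 ± 0.09 in NZO, 7.97 ± 0.22 in C3H, 8.20 ± 0.11 in 129P2 and 8.24 ± 0.28 in B6, with NZO minus B6 at -0.25 (adjusted p = 0.173). Gcgr averaged 10.56 ± 0.11 in NZO, 10.53 ± 0.22 in C3H, 10.84 ± 0.12 in 129P2 and 10.74 ± 0.10 in B6, with adjusted p of 0.0681 in NZO minus 129P2 and 0.06 in C3H minus 129P2. Insr averaged 10.64 ± 0.16 in NZO, 10.61 ± 0.26 in C3H, 10.62 ± 0.11 in 129P2 and 10.75 ± 0.09 in B6 and Foxo1 9.11 ± 0.13 in NZO, 9.16 ± 0.08 in C3H, 9.29 ± 0.30 in 129P2 and 9.19 ± 0.16 in B6 (SD, n = 5 each), and their NZO minus B6 intervals ran from -0.33 to 0.11 and from -0.31 to 0.16.

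**Figure D5:**
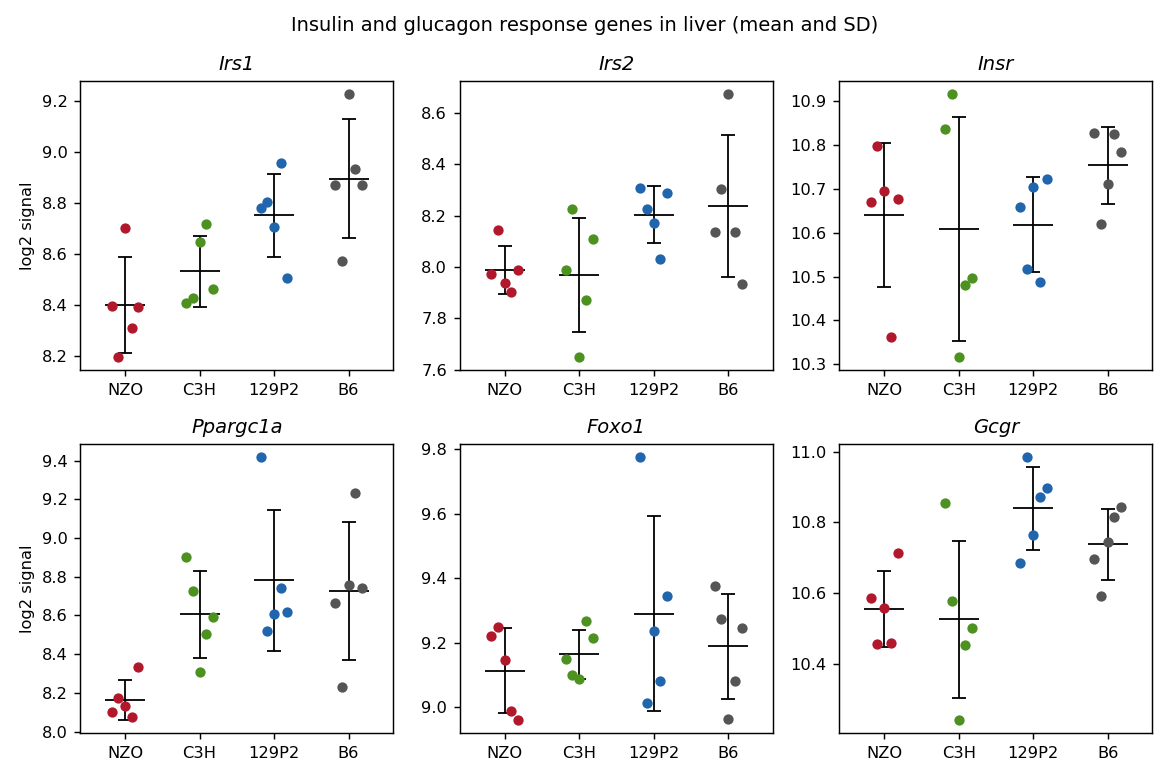
Log2 signal of the 6 insulin and glucagon signalling members (Irs1, Irs2, Insr, Ppargc1a, Foxo1 and Gcgr) in each liver, with strains in the order NZO, C3H, 129P2, B6; points are single arrays, bars the mean and SD (n = 5). NZO points are low and close together for Ppargc1a, and Irs1 means step up in the order drawn.

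Several markers of other cells also differed in NZO, where 10.3% of all tested genes passed against B6, 6.6% against C3H and 8.9% against 129P2. The endothelial, stellate and fibroblast counts lay well above these shares, and the Kupffer cell counts lay nearer to them. Of 9 endothelial markers 7 had lower levels in NZO against B6, 6 against C3H and 6 against 129P2, and their mean log2 level was 7.98 to 8.47 on NZO arrays, 8.43 to 8.85 on C3H, 8.46 to 8.89 on 129P2 and 8.51 to 9.05 on B6 arrays. Of 9 stellate and fibroblast markers 4 had lower levels in NZO against B6, 2 against C3H and 3 against 129P2. Of 10 Kupffer cell markers 2 were lower against B6 (Clec4f, -0.69, adjusted p = 0.000405, and C1qa, -0.43, adjusted p = 0.0401). Among these 10, 1 was higher against C3H (Folr2, 1.11, adjusted p = 0.00012), and 1 was lower against 129P2 (Clec4f, -0.59, adjusted p = 0.00177). Of 8 neutrophil markers 5 were dim on all 20 arrays. Of the 3 tested, Lcn2 (2.01, adjusted p = 0.0207) and S100a9 (0.39, adjusted p = 0.0285) were higher in NZO than in B6. Lcn2 varied widely in NZO (SD 1.37, n = 5), and its NZO and B6 values overlapped. It averaged 11.5 in NZO and 9.53 in B6, and which cells its signal came from was not tested. Of 3 erythroid markers tested, Alas2 (0.58, adjusted p = 0.0013) and Slc4a1 (0.24, adjusted p = 0.0367) were higher in NZO than in B6. Alas2 was also higher in NZO than in 129P2 (0.59, adjusted p = 0.0011). None of 10 hepatocyte markers was lower in NZO, and Fga, Fgb or Hpx was higher in some comparisons.

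Markers of the lobule's zones differed in few genes, where 10.3% of all tested genes passed against B6, 6.6% against C3H and 8.9% against 129P2. Of 12 pericentral markers Rhbg was higher in NZO than in B6 (1.10, adjusted p = 7.61e-06), C3H (0.97, adjusted p = 4.52e-05) and 129P2 (0.96, adjusted p = 4.70e-05). In each comparison 1 was lower. It was Cyp1a2 against C3H (-0.51, adjusted p = 0.011) and 129P2 (-0.61, adjusted p = 0.00205). Of 6 periportal markers tested besides Pck1, Cdh1 was lower in NZO than in B6 (-0.73, adjusted p = 0.000334). It was also lower than in B6 in C3H (-0.71, adjusted p = 0.000554) and 129P2 (-0.61, adjusted p = 0.00259). Another periportal marker was higher in NZO than in C3H. In bulk tissue fewer cells of a type and less RNA per cell cannot be told apart, and the part of these cells and zones in the lower Gys2, Pck1, Ppargc1a and Irs1 values of NZO was not tested.

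Some feeding and clock genes differed, where 10.3% of all tested genes passed against B6, 6.6% against C3H and 8.9% against 129P2. The shares of the feeding indicators against B6 and of the clock genes against C3H lay well above these. Those of the other NZO comparisons lay nearer. Of 22 feeding and fasting indicators 5 were lower in NZO than in B6, among them the fasting-induced Igfbp1 (-1.74, adjusted p = 0.00168) and the lipogenic Scd1 (-1.91, adjusted p = 1.42e-05). Against C3H 2 were lower in NZO, and against 129P2 2 were lower and 1 higher. Scd1 was also lower in NZO than in C3H (-1.10, adjusted p = 0.00611). It was lower than in B6 in both C3H (-0.80, adjusted p = 0.0488) and 129P2 (-1.44, adjusted p = 0.000553). Of 15 clock genes 2 were higher and 3 lower in NZO than in C3H, with Arntl at 0.80 (adjusted p = 0.0373) and Nr1d1 at -0.66 (adjusted p = 0.00791). Against B6 1 was higher and 1 lower, with Nr1d1 at -0.62 (adjusted p = 0.0102), and against 129P2 1 was lower. Gys2, Pck1 and Ppargc1a are known to cycle with feeding or time of day, and the part of either in these differences was not tested.

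Other genes of the same paths were read from wider lists, in which most genes did not pass. Over all tested genes 10.3% passed against B6 (3.63% higher and 6.64% lower). Against C3H 6.6% passed (3.51% higher and 3.09% lower), and against 129P2 8.9% (4.29% higher and 4.61% lower). Several counts in this paragraph and the next lay near these shares. Of 35 further genes of glycolysis, fructose and pyruvate, 2 were higher and 3 lower in NZO minus B6, 1 higher and 1 lower in NZO minus C3H, and 3 higher and 2 lower in NZO minus 129P2. Pdk1, another kinase of the pyruvate dehydrogenase complex, averaged 7.93 in NZO, 9.55 in C3H, 9.87 in 129P2 and 9.42 in B6, and its NZO difference was -1.49 (adjusted p = 2.12e-06) from B6, -1.62 (adjusted p = 6.20e-07) from C3H and -1.94 (adjusted p = 4.14e-08) from 129P2, with no overlap. Mpc1, a subunit of the mitochondrial pyruvate carrier, was lower in NZO than in B6 (-0.48, adjusted p = 0.0111) and 129P2 (-0.61, adjusted p = 0.00156). So it was in C3H (-0.45 from B6, adjusted p = 0.0225, and -0.58 from 129P2, adjusted p = 0.00404), with means of 10.64 in NZO and 10.68 in C3H. Ldhd, a D-lactate dehydrogenase, was higher in NZO than in B6 (0.55, adjusted p = 0.00964), C3H (0.56, adjusted p = 0.0116) and 129P2 (0.45, adjusted p = 0.0398).

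Of 21 further glycogen genes, limma called 0 against B6 and 129P2 (3 and 1 at an unadjusted p under 0.05), and against C3H 1 was higher (Gaa, the lysosomal glucosidase, at 0.49, adjusted p = 0.00155) and 2 lower in NZO. Gaa was low in C3H, which differed from B6 by -0.64 (adjusted p = 7.43e-05) and from 129P2 by -0.63 (adjusted p = 9.50e-05). Of 37 further signalling genes, NZO had 1 higher and 2 lower against B6, 0 against C3H (3 at an unadjusted p under 0.05), and 4 lower against 129P2. Crtc2, a coactivator of CREB that glucagon switches on, was lower in NZO than in B6 (-0.33, adjusted p = 0.0272) and 129P2 (-0.32, adjusted p = 0.0398). It was lower in C3H than in B6, too (-0.32, adjusted p = 0.0437). Trib3, a pseudokinase that binds AKT, was lower in NZO than in 129P2 (-0.41, adjusted p = 0.00629). Of 20 further transcription regulators, 2 were lower than in B6, 0 passed against C3H (6 at an unadjusted p under 0.05), and 1 was higher and 3 lower than in 129P2. Srebf1, whose product SREBP-1c drives insulin-induced lipogenesis, was highest in B6: NZO minus B6 was -1.01 (adjusted p = 3.35e-06), C3H minus B6 -0.66 (adjusted p = 0.000888) and 129P2 minus B6 -0.51 (adjusted p = 0.00965). It was also lower in NZO than in 129P2 (-0.51, adjusted p = 0.00724).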

How the data were processed

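Liver RNA (150 ng, integrity number above 8, per the labels' protocols) of 20 mice was hybridised to whole-transcript arrays. The deposited log2 values were made by robust multi-array average (RMA) in Affymetrix Expression Console, per the submitters' processing notes, with no version given, and were used unchanged. Samples were numbered within strains in series order. No arrays held identical values. Array number limits the precision.

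Of 35556 probe sets, 21789 had 1 symbol in the platform annotation, 1621 several and 12146 none here; only the first were used. For 999 genes with several probe sets the one of highest mean was taken. The filter kept the 14190 genes above the 40th percentile of the array on 5 or more arrays. Differences came from limma 3.58.1 in R 4.3.3 (data.table, version 1.17.8): 1 mean per strain, empirical Bayes with intensity trend (16 residual, 6.37 prior degrees of freedom), Benjamini-Hochberg over all tested genes, adjusted p under 0.05, 95% intervals. The fit and the correlation were tested on simulated data. Correlations used Python 3.11.15 and scipy 1.17.1, figures matplotlib 3.10.9.

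Members, wider lists, motifs and tests were chosen with earlier results of these data known. Members that passed are given with every array, as are G6pc, Pklr and Khk, which passed nowhere. The other members are given by mean or range. Of other lists at most the 4 largest non-overlapping called genes are named. Called cell markers are named or only counted. Settings varied were the filter (none, 60th percentile), equal medians, quantile normalization, array weights, no trend, mean of probe sets, robust moderation, a fit of only the compared strains, array spread as covariate, leaving out the 3 narrowest arrays, and leaving out each animal. Promoters are 250 bases upstream of RefSeq starts; 26 of 29 members matched by symbol, and Gys2, Insr and Ppp1r3b did not.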

Additional observations from a re-analysis of the deposited data

Results flagged for a closer look

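In 8 of 116 groups of 5 livers (29 members in 4 strains), the highest or lowest liver stood far enough from the other 4 that its gap passed Dixon's critical ratio of 0.71, which chance gives in about 1 of 20 groups. Gys2 in C3H replicate 3 was 11.205, with the others at 11.737 to 11.79. Ppp1r3b in C3H replicate 2 was 8.7557, with the others at 9.4162 to 9.467, and Pgam1 in the same liver was 10.579, with the others at 11.156 to 11.314. Pgam1 was also low in 129P2 replicate 2, at 10.384 against 11.001 to 11.226. In 129P2 replicate 1, Pfkfb3 was high at 8.8063 (others 6.7544 to 7.2432), Ppargc1a was high at 9.4189 (others 8.5215 to 8.7427), and Pfkl was low at 8.4242 (others 8.4891 to 8.5065). Pfkfb3 in B6 replicate 2 was high at 8.2524 (others 7.0914 to 7.229). C3H replicate 3 and 129P2 replicate 2 were 2 of the 3 arrays of narrowest spread; the part of array spread in these values was not tested.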

How the results depend on the processing

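The 20 called member differences were recomputed in 620 alternatives: 515 stayed past the threshold, 105 did not, and 0 changed sign. Kept in every one were Gys2 and Gbe1 in NZO minus B6, Gys2 and Slc2a2 in NZO minus C3H, Ldha in NZO minus 129P2, and Pcx in C3H minus 129P2 (6 calls), and 9 calls were kept without each single animal. Array spread as a covariate gave 3 member calls in NZO minus B6 in place of 6, 4 in NZO minus C3H in place of 2, 12 in NZO minus 129P2 in place of 7, 0 in C3H minus B6 in place of 1, 1 in 129P2 minus B6 in place of 2, and 6 in C3H minus 129P2 in place of 2. Among all tested genes it gave, higher and lower, 711 and 667 in NZO minus B6 (515 and 942 without it). The same counts were 656 and 703 in NZO minus C3H (498 and 438) and 873 and 1055 in NZO minus 129P2 (609 and 654). They were 437 and 407 in C3H minus B6 (384 and 758) and 517 and 423 in 129P2 minus B6 (300 and 579). In C3H minus 129P2 they were 529 and 596 (319 and 395). Array weights gave 5 in NZO minus C3H, 13 in NZO minus 129P2, 3 in C3H minus B6, 1 in 129P2 minus B6, 4 in C3H minus 129P2 and 15 in the F-test over 4 strains in place of 9. The counts of all tested genes with array weights are not given here. Equal array medians gave 2 in NZO minus 129P2, 1 in 129P2 minus B6 and 1 in C3H minus 129P2; only the compared strains in the fit gave 4 in NZO minus 129P2 and 1 in 129P2 minus B6. In C3H minus B6 the count was 0 with no filter, with quantile normalization and with the mean of probe sets, and in 129P2 minus B6 it was 1 with no filter and without the 3 narrowest arrays, as it was without these in C3H minus 129P2. Leaving out single animals gave 4 to 7 calls in NZO minus B6, 2 to 3 in NZO minus C3H, 3 to 8 in NZO minus 129P2, 0 to 2 in C3H minus B6, 1 to 3 in 129P2 minus B6, 1 to 4 in C3H minus 129P2 and 6 to 12 in the F-test. Without the 2 farthest livers, r was 0.5075 for G6pc with Pck1 (adjusted p = 0.026), while Spearman's rho was 0.484 (adjusted p = 0.094). For Pck1 with Ppargc1a r was -0.2733 there, against 0.1912 with all livers. The cause was not tested for any of these changes. Over all tested genes, the share of calls that were higher in NZO minus B6 was 51.6% with array spread as a covariate and 35.3% without. No paired analysis was made, as the groups are different strains and the labels state no pairing between their samples. With 5 arrays a strain, the 95% interval of NZO minus B6 ran from -0.34 to 0.01 for Pck2, the narrowest, and from -0.98 to 0.40 for G6pc, the widest.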

Other observations

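The pentose phosphate path makes NADPH from glucose 6-phosphate. Of 7 genes tested, 2 were lower in NZO than in B6 (where 6.64% of all tested genes were lower), Tkt (-0.45, adjusted p = 0.00937), the transketolase, and Pgls (-0.31, adjusted p = 0.0017), the lactonase. Pgls was also lower in C3H than in B6 (-0.25, adjusted p = 0.0146) and in 129P2 than in B6 (-0.28, adjusted p = 0.00589), with no overlap in any of the 3 comparisons, and these share the B6 arrays. Pgd, which encodes 6-phosphogluconate dehydrogenase, was lower in C3H than in B6 (-0.39, adjusted p = 0.0367) with overlapping values; it is named after its values were seen, as 1 of the 2 genes of the list that were lower in C3H (5.34% of all tested genes), and 1 was lower in 129P2 than in B6 (4.08%). Among NZO, C3H and 129P2, limma called 0 of the 7 in each comparison, with 1, 1 and 0 at an unadjusted p under 0.05 in NZO minus C3H, NZO minus 129P2 and C3H minus 129P2. Aldoc, an aldolase, was low in 129P2: NZO minus 129P2 was 0.61 (adjusted p = 0.00467), C3H minus 129P2 0.74 (adjusted p = 0.00129) and 129P2 minus B6 -0.62 (adjusted p = 0.00548), each with no overlap.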
